A study of Mus musculus with 38 samples.

Results

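Mouse T helper cells that lacked STAT6 and were cultured toward Th2 were compared with T helper cells that lacked STAT4 and were cultured toward Th1. The comparison rests on 4 RNA-seq libraries, chosen by their labels, of 14 RNA libraries and 38 samples in the series. They form 2 matched pairs: STAT6 KO Th2 (Stat6 tm1) against STAT4 KO Th1 (STAT4 tm1) without a vector on day 7, and the same genotypes with an empty control retrovirus, labelled day 5. The same 2 pairs in WT cells, WT Th2 and WT Th1, are the reference. The question was which part of the Th1 and Th2 difference remains when each lineage lacks the STAT protein of its own inducing cytokine.

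All 8 libraries came from naive CD4+ T cells of C57BL/6J mice, sorted from spleen and lymph nodes and activated through CD3 and CD28. Th1 medium held IL-12 and an antibody to IL-4, and Th2 medium held IL-4 and an antibody to IFNG, each later with IL-2. The day 7 cells were restimulated for 2 h on plate-bound antibodies to CD3 and CD28. For the Th1 vector cells 1 label says day 5 and another says day 7 with 2 h of restimulation, and for the Th2 vector cells no label gives restimulation. The 2 STAT KO groups differ both in the culture medium and in which STAT gene is altered, and these cannot be told apart. Each STAT KO group also still carries the other STAT gene. Every group has 1 library in each culture, and the labels do not say that cultures came from separate animals, so a p-value here reflects the scatter among these libraries, which may be technical.

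STAT4 is the transcription factor that IL-12 activates, and it drives Ifng and the Th1 programme together with T-bet (Tbx21). STAT6 is the factor that IL-4 activates, and it drives Gata3, Il4 and the Th2 programme. Activated STAT dimers bind palindromes of TTC and GAA with a short spacer, which for STAT6 is often 1 base longer.

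The promoters of 5 genes on which the results turn are shown first: Ifng, Il12rb2 and Nkg7 are WT Th1 genes with little of that difference in the STAT KO pairs, Il31 is a WT Th2 gene that was lower in STAT6 KO Th2, and Il7r was 2-fold higher in STAT6 KO Th2 in both pairs. Each run is the 250 bases before the RefSeq start (build GRCm38.p6), read 5′ to 3′ on the gene's strand, with matches to TTCNNNGAA, or to the same palindrome with a spacer of 4 bases, in capitals. Each motif is its own reverse complement, so a search of 1 strand covers both strands, and a match to one is never a match to the other at the same bases.
Ifng: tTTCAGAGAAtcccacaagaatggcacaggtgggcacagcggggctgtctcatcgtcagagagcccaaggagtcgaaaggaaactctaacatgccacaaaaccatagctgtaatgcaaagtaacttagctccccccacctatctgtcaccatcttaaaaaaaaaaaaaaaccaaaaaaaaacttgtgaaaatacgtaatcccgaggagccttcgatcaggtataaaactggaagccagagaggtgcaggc
Il12rb2: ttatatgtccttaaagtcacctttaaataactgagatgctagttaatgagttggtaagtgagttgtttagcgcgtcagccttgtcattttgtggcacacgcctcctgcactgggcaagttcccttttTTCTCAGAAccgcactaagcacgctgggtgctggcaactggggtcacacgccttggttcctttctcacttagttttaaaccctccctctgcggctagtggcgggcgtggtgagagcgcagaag
Nkg7: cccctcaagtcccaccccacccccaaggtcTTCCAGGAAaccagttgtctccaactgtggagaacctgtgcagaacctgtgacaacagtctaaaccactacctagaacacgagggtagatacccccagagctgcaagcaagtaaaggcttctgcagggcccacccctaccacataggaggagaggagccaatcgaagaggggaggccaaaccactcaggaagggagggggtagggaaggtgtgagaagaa
Il7r: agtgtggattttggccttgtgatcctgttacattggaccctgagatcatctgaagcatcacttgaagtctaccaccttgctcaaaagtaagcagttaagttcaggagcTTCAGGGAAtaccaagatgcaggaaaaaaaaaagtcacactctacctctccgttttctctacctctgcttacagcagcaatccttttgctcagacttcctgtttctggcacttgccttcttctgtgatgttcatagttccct
Il31: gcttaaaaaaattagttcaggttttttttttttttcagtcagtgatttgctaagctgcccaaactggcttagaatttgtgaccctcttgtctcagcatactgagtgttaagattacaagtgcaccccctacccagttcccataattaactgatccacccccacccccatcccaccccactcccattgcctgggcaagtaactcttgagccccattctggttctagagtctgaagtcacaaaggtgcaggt
The windows lie at chr10:118440796-118441045 (+) for Ifng, chr6:67376189-67376438 (-) for Il12rb2, chr7:43436888-43437137 (+) for Nkg7, chr15:9529877-9530126 (-) for Il7r and chr5:123482624-123482873 (-) for Il31. The match TTCAGAGAA lay 249 to 241 bases before the start of Ifng, TTCTCAGAA 123 to 115 bases before that of Il12rb2, TTCCAGGAA 220 to 212 bases before that of Nkg7 and TTCAGGGAA 142 to 134 bases before that of Il7r. The Il31 window held neither motif. The windows were not chosen to stand for the rest: the matched promoters of Stat4, Stat6, Rell1, Txnip, Myl10, Ccr8, Pdlim4, Tbx21 and Il4 held neither motif as well. Either motif was found in 12.6% of 27025 RefSeq promoters of this length, and in 637 (9.96%) of the 6397 genes matched by symbol among the tested genes. A match describes letters, not a bound site.

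The STAT KO cells checked as T cells, with few transcripts of other cells. Cd3e lay between 128 and 159 FPKM and Cd4 between 95.7 and 145 FPKM in the 4 STAT KO libraries, where FPKM is fragments per kilobase of transcript, scaled to the mapped fragments of the library. Of 47 markers of B cells, CD8 T cells, dendritic cells, erythroid cells, mast cells and basophils, monocytes and neutrophils, and NK cells, 42 were under 1 FPKM in all 4 libraries, 9 were at 0 in all 4, and 1 (Cd8b1) reached the level needed for testing. The sum of the 6 genes listed for NK cells was 1.03 to 3.55 FPKM in STAT4 KO and 0.747 to 1.49 FPKM in STAT6 KO, nearly all of it Kit, a gene of mast cells and progenitors, with 3 or 4 of the 6 at 0. The monocyte and neutrophil markers summed to 1.41 to 3.4 and 1.45 to 4.25 FPKM. Some sums were higher in the WT reference. In day 7 WT Th2 these markers summed to 10.95 FPKM (Emr1 8.417), and mast cell and basophil markers to 10.75 FPKM (Cpa3 10.17). With the vector these WT Th2 sums were 3.895 and 1.264 FPKM. The NK cell list summed to 10.79 FPKM in day 7 WT Th1, where Kit was its highest member. Whether this came from other cells was not tested. Each STAT KO library had 8118 to 8460 genes at 3 FPKM or more. Read totals are not in the tables, so depth is given by the deposited intervals, whose upper bound lay a median of 6.61% to 8.53% above the value for genes from 3 to 10 FPKM. In bulk RNA, fewer cells of a type and less RNA per cell cannot be told apart.

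Stat4 and Stat6 themselves were among the few genes that differed, each lower in its own KO. Stat4 was at 17.5 FPKM in STAT4 KO Th1 and 84.5 in STAT6 KO Th2 on day 7, and at 7.57 and 19.2 with the vector; the WT values were 60.8 (Th1) and 53.3 (Th2), and 41.0 and 21.2 with the vector. The STAT4 KO libraries were thus the lowest of their culture, although reads still fell on the gene. Stat6 was at 34.6 FPKM in STAT6 KO Th2 and 71.9 in STAT4 KO Th1 on day 7, and at 36.1 and 76.5 with the vector. In WT Th2 cells Stat6 was at 35.6 FPKM on day 7 and 65.9 with the vector. On day 7 the STAT6 KO level was thus within 1 FPKM of that of WT Th2, so transcript level does not check that label; the tables give 1 value per gene, in which exons outside the altered part also count. On the log2(FPKM + 1) scale the STAT6 KO minus STAT4 KO difference of Stat4 was 2.20 and 1.23 in the 2 pairs, and that of Stat6 was -1.03 and -1.06. No other tested gene near either locus was 2-fold apart in both pairs: 19 tested genes within 5 Mb of Stat4 had a median difference of 0.15 and 55 within 5 Mb of Stat6 one of -0.026.

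Between the 2 STAT KO lineages most genes were within a narrow range, and far fewer were 2-fold apart than between the WT lineages. Of 8025 genes at 3 FPKM or more in 1 library of each pair, 54 (0.673%) were 2-fold apart on day 7 and 63 (0.785%) with the vector. In the WT pairs 1290 (16.0%) and 540 (6.69%) of 8066 genes were. These counts hold small RNA genes, whose transcripts are shorter than most library fragments. Without them, 12 genes were higher and 25 lower in STAT6 KO Th2 on day 7, and 13 and 27 with the vector, against 706 and 569, and 122 and 402, in the WT pairs. The difference was within 0.5 for 89.4% and 92.5% of genes in the STAT KO pairs and for 56.5% and 80.5% in the WT pairs. The SD over genes was 0.32 and 0.29 in the STAT KO pairs and 0.86 and 0.61 in the WT pairs. The median absolute difference was 0.222 and 0.181 in the STAT KO pairs and 0.425 and 0.219 in the WT pairs. By that measure the day 7 STAT KO pair was about as far apart as the WT vector pair.

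**Figure D1:**
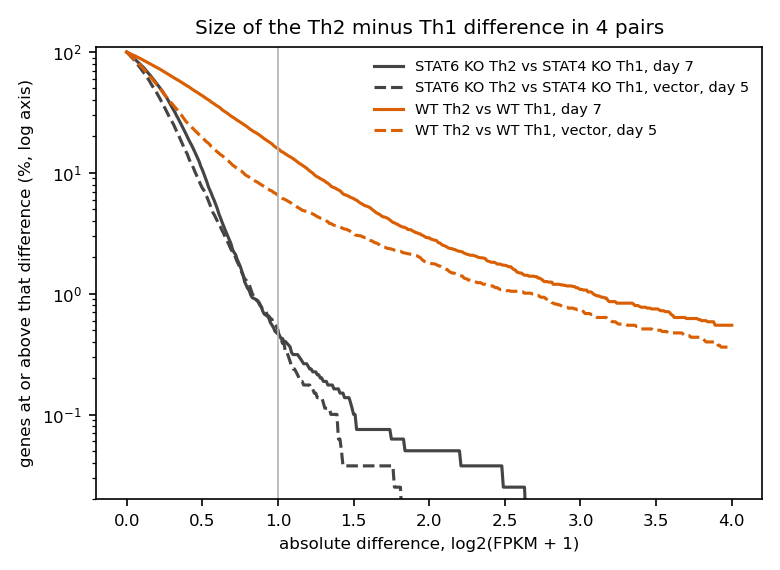
The share of genes (percent, log axis) whose absolute Th2 minus Th1 difference reaches the value on the x axis (log2(FPKM + 1)) in the 2 STAT KO pairs (grey) and the 2 WT pairs (orange), solid for day 7 and dashed for the vector culture, small RNA genes left out. At a 2-fold difference, marked by the grey line, both grey curves lie below both orange curves. At small differences they are not all apart: the median absolute difference was 0.222 in the day 7 STAT KO pair and 0.219 in the WT vector pair.

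The STAT KO differences of the 2 pairs had a Pearson r of 0.157 over 7968 genes, and those of the WT pairs one of 0.560 over 8017 genes. The mean STAT KO and mean WT differences had an r of -0.020 over 8361 genes. Genes are not independent replicates, and the 2 libraries of a pair share their gene models and lengths, so these are descriptions. The deposited intervals of the 2 STAT KO libraries did not overlap for 5352 of 7968 genes on day 7 and for 4556 with the vector. In both pairs, 548 genes were apart and higher in STAT6 KO Th2, 1440 were apart and lower, and 1362 were apart in opposite directions. These intervals cover counting error and do not hold the spread between cultures.

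limma was fitted over all 8 libraries, with a term for each group and one for the culture. In this fit 1 of 8025 genes (0.0125%) passed a Benjamini-Hochberg adjusted p of 0.05 for STAT6 KO Th2 against STAT4 KO Th1. An unadjusted limma p under 0.05 was found for 260 genes, less than the share of 0.05 expected if no gene differed. The spread of this fit also holds that of the WT libraries. In the fit of the 4 STAT KO libraries, given below, 772 genes had such a p. The 1 gene was Mir365-2, a microRNA precursor on mm9 chr11:79539902-79540013, named after its values were seen. It was at 50.9 and 45.5 FPKM in the STAT4 KO libraries and listed at 0 in the other 6 libraries, WT Th1 included (limma adjusted p = 0.00012). The count became 2 without either STAT4 KO library or without the day 7 STAT6 KO library. The same fit gave 85 genes (1.05%) higher and 246 (3.05%) lower in WT Th2 than in WT Th1, of 8066. The sum of 331 WT genes became 854 without the WT Th1 vector library, 358 without the WT Th2 vector library and 137 to 186 without any other single library. A fit on the 4 STAT KO libraries alone, with 1 residual degree of freedom, takes its spread from these libraries only and called 51 genes: 23 (0.287%) higher and 28 (0.349%) lower in STAT6 KO Th2. After upper-quartile scaling it called 39.

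By fold alone, 6 genes (0.0748%) were at least 2-fold higher and 11 (0.137%) at least 2-fold lower in STAT6 KO Th2 in both pairs, against 91 (1.13%) and 222 (2.75%) between WT Th2 and WT Th1. Of these 17 STAT KO genes 6 were small RNA genes, and so were 9 of the 10 genes 2-fold apart in opposite directions in the 2 pairs. The other 11 are Stat4, Il7r, Rell1 and Txnip, higher in STAT6 KO Th2, and Stat6, Ccr8, Il31, Pdlim4, Myl10, H2-Q7 and H2-Q9, lower. Rell1, Txnip and Myl10 were on no gene list and were named after their values were seen. In the 8-library limma fit none of the 11 passed the adjusted threshold (lowest adjusted p 0.994). All 11 passed it in the 4-library fit, which uses the same values they were chosen on, so that is no further support. With upper-quartile scaling 6 of the 11 stayed past 2-fold in both pairs: Stat4, Il7r, Rell1, Txnip, Il31 and Myl10. With quantile normalization Stat4, Il7r, Rell1, Txnip, Myl10 and Pdlim4 did, and Il31, Ccr8, Stat6, H2-Q7 and H2-Q9 did not; Akr1c18 and H2-Q8 joined them, named after their values were seen.

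Il7r, which encodes the IL-7 receptor chain that keeps naive and memory T cells alive, was at 43.6 FPKM in STAT4 KO Th1 and 103.58 in STAT6 KO Th2 on day 7, and at 9.82 and 22.4 with the vector. In WT cells it was at 106 (Th1) and 107 (Th2), and at 27.2 and 20.0 with the vector, so the STAT4 KO library was the lowest of its culture both times. The STAT KO difference was 1.17 ± 0.18 (mean of 2 pairs, limma SE of the 8-library fit), with an adjusted p of 0.994 in that fit. The adjusted p of 0.00135 in the 4-library limma fit comes from the values on which Il7r was chosen. Txnip, a thioredoxin-binding protein that restrains glucose uptake, was at 26.2 and 56.5 FPKM on day 7 and 21.4 and 45.3 with the vector (STAT4 KO first). Its WT values were 10.6 (Th1) and 17.4 (Th2), and 31.0 and 15.1 with the vector, so both STAT6 KO libraries were above all 4 WT libraries. Rell1 was at 3.46 and 9.84 FPKM, and at 1.36 and 3.81 with the vector. Both STAT6 KO values of Rell1 exceeded the STAT4 KO value of their own culture, with vector levels near the 3 FPKM minimum. In both WT pairs Rell1 was at least 1.5-fold lower in Th2, the opposite direction.

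The genes lower in STAT6 KO Th2 include 3 that were higher in WT Th2 than in WT Th1. Il31, a Th2 cytokine that acts on sensory neurons and skin, was at 130 FPKM in STAT4 KO Th1 and 61.7 in STAT6 KO Th2 on day 7, and at 34.5 and 12.2 with the vector. WT Th1 had 30.7 and WT Th2 1708 on day 7, and 15.2 and 137 with the vector. Both STAT4 KO libraries thus lay above WT Th1 and below WT Th2. The chemokine receptor gene Ccr8 was at 17.1 and 7.99 FPKM on day 7 and 26.0 and 12.4 with the vector, against 7.92 (WT Th1) and 121 (WT Th2), and 32.4 and 71.4. Pdlim4, a PDZ and LIM domain protein, was at 17.7 and 5.52 FPKM on day 7 and 11.8 and 5.31 with the vector. WT Th1 had 0.421 and 0.495 FPKM of Pdlim4 and WT Th2 16.2 and 10.2, so the STAT4 KO Th1 libraries were near WT Th2 rather than WT Th1.

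Myl10, a myosin light chain gene, showed the largest difference of the 11: 66.8 FPKM in STAT4 KO Th1 and 9.89 in STAT6 KO Th2 on day 7, and 9.97 and 2.13 with the vector, against 0.757 to 2.10 FPKM in the 4 WT libraries. Its STAT KO difference was -2.64 and -1.81. All 4 STAT KO libraries were above the WT libraries, but the STAT6 KO vector library (2.13 FPKM) barely so and under the 3 FPKM minimum. The MHC class Ib genes H2-Q7 and H2-Q9 have overlapping loci in the tables (mm9 chr17:35576100-35580718 and chr17:35576112-35580715) and near-identical copies, so their reads may be shared and they are uncertain as separate genes. H2-Q7 was at 197 and 70.3 FPKM on day 7 and 78.4 and 37.5 with the vector, and at 265 (WT Th1) and 52.5 (WT Th2), and 128 and 13.3. This was the WT direction, in all 4 pairs.

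**Figure D2:**
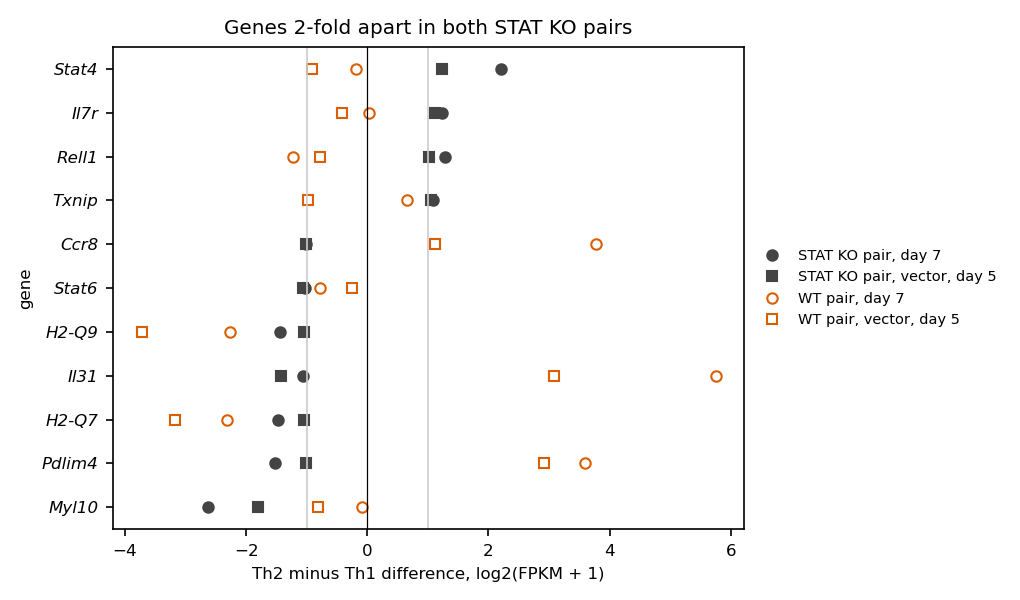
The 11 genes at least 2-fold apart in both STAT KO pairs, with the Th2 minus Th1 difference (log2(FPKM + 1)) in the STAT KO pairs (filled) and the WT pairs (open), circles for day 7 and squares for the vector culture. H2-Q7 and H2-Q9 lie left of 0 in all 4 pairs, and Il31, Ccr8 and Pdlim4 lie left of 0 in the STAT KO pairs and right of 0 in the WT pairs.

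The genes that separate the WT lineages were next followed in the STAT KO cells. They were chosen on the WT libraries alone. Of 222 genes at least 2-fold lower in WT Th2 in both WT pairs (Th1-biased genes), 2 (H2-Q7 and H2-Q9) were 2-fold lower in both STAT KO pairs and 0 were 2-fold higher. Of 91 Th2-biased genes 0 kept 2-fold in both STAT KO pairs and 3 (Ccr8, Il31 and Pdlim4) were 2-fold in the other direction. Over all 8066 WT-tested genes 5 were 2-fold higher and 8 lower in both STAT KO pairs. Of the Th1-biased genes 51, and of the Th2-biased genes 45, were under the 3 FPKM minimum in the STAT KO pairs, and they are counted here as neither. These counts rest on the scaling of the libraries: upper-quartile scaling gave 0 kept and 1 reversed gene (Il31), and quantile normalization 1 kept (H2-Q8) and 1 reversed (Pdlim4).

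The mean STAT KO difference was within 0.5 for 191 Th1-biased genes (86.0%) and 73 Th2-biased genes (80.2%), against 96.1% of all WT-tested genes. These counts, and the medians and signs that follow, include the genes under 3 FPKM in the STAT KO pairs, whose differences this scale compresses. Among the 171 Th1-biased and 46 Th2-biased genes above that minimum, 147 (86.0%) and 31 (67.4%) were within 0.5. The median difference of the Th1-biased genes was -1.76 in WT and -0.003 in STAT KO, and that of the Th2-biased genes was 2.06 in WT and -0.076 in STAT KO; over all WT-tested genes the medians were -0.024 and -0.050. The sign was the WT one in both STAT KO pairs for 63 Th1-biased and 15 Th2-biased genes, and the opposite one in both for 64 and 39.

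On a scale on which a gene is at 0 at its WT Th1 level and at 1 at its WT Th2 level, the Th1-biased genes had a median of 0.538 in STAT4 KO Th1 and 0.558 in STAT6 KO Th2. Both STAT KO groups thus lay about midway. The Th2-biased genes had a median of 0.036 in STAT4 KO Th1 and -0.041 in STAT6 KO Th2, which is near the WT Th1 level. Of the 91 Th2-biased genes, 77 were nearer WT Th1 in STAT4 KO Th1 and 77 in STAT6 KO Th2. The WT ends of this scale are the libraries the genes were chosen on, so the positions are descriptions.

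In limma the STAT KO difference itself differed from the WT difference for 68 of 8420 genes at an adjusted p of 0.05: it was higher for 47 (0.558%) and lower for 21 (0.249%). All 47 were Th1-biased genes, and 20 of the 21 were Th2-biased; the other was Mir365-2. The test picks genes whose 2 differences are far apart, so these counts and the next ones partly follow from the choice. Over all 8025 genes tested in the STAT KO pairs, the STAT KO difference was smaller than the WT one for 5344. Among the 68 called genes it was smaller for 67, and its mean was within 0.5 for 51, against 96.1% of WT-tested genes. The count became 23 to 26 when any 1 of the 4 STAT KO libraries was left out, 106 without the day 7 WT Th2 library, 130 without the WT Th2 vector library, 190 without the WT Th1 vector library and 72 without the day 7 WT Th1 library. Either STAT motif was found in 15 (26.3%) of the 57 promoters matched for these genes without Mir365-2. The share was 17.2% of the matched Th1-biased genes, 12.5% of the matched Th2-biased genes and 9.96% of the matched tested genes. Either motif was found in 1 of the 10 matched promoters of the genes 2-fold apart in both STAT KO pairs. For the genes called in the 4-library fit it was found in 2 of 34 (5.88%). These shares are descriptions, with no test.

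**Figure D3:**
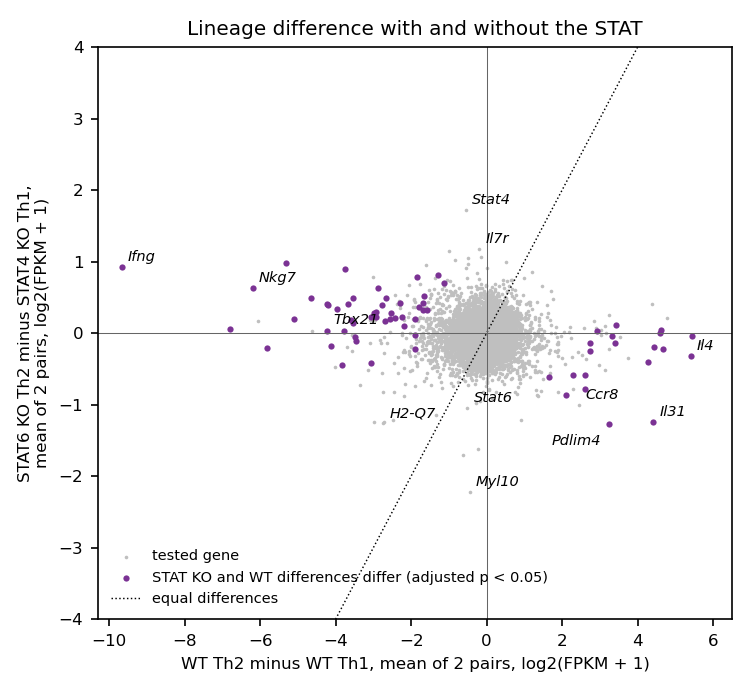
Mean Th2 minus Th1 difference of each gene (log2(FPKM + 1), mean of 2 pairs) in WT cells (x axis) and in STAT KO cells (y axis, a narrower scale). Purple points are genes whose 2 differences differ in limma, and the dotted line marks equal differences; the purple points lie along the horizontal line at 0, from Ifng on the left to Il4 on the right.

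Among ligands, Ifng, the signature Th1 cytokine, was at 60.3 FPKM in STAT4 KO Th1 and 135.5 in STAT6 KO Th2 on day 7, and at 22.6 and 37.3 with the vector. WT Th1 had 8326 and 4074.5 FPKM and WT Th2 14.1 and 2.40. Every STAT KO library was below both WT Th1 libraries and above both WT Th2 libraries. The STAT KO minus WT difference was 10.59 ± 0.41 (limma SE, adjusted p = 2.54e-04). The STAT KO difference was 0.93 ± 0.29 (SE of the 8-library limma fit, which did not call Ifng). In the separate 4-library limma fit Ifng had an adjusted p of 0.0334. Of 13 tested Th1 cytokines and chemokines 6 were higher and 3 lower in STAT6 KO Th2 in both pairs (here and for the lists below by sign alone, whatever the size; 1521 and 2882 of all 8025 tested genes), and the median difference was 0.18 (WT -2.04; all tested genes -0.049 and -0.024). In the 4-library limma fit Ifng and Cxcl10 were called, both higher in STAT6 KO Th2. Cxcl10, a chemokine that IFNG induces, was at 22.1 and 37.4 FPKM on day 7 and 18.8 and 34.3 with the vector.

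Il4, the signature Th2 cytokine, was at 22.4 FPKM in STAT4 KO Th1 and 20.5 in STAT6 KO Th2 on day 7, and at 12.9 and 8.71 with the vector, against 3.61 and 9.75 in WT Th1 and 513 and 173 in WT Th2. All 4 STAT KO libraries were below both WT Th2 libraries. Its STAT KO difference differed from the WT one by -5.73 ± 0.85 (limma adjusted p = 0.0451), and that of Il31 by -5.66 ± 0.78 (limma adjusted p = 0.0356). Neither call held without any 1 of the 4 STAT KO libraries (limma adjusted p from 0.141 to 0.237 for Il4 and from 0.141 to 0.229 for Il31) or with 12 or 14 libraries (Il4: 0.175 and 0.293; Il31: 0.0881 and 0.13). That of Il4 was also lost with a pseudocount of 0.1 (0.0572) and without the day 7 WT Th2 library (0.0819). Of 15 listed Th2 cytokines 6 were tested, 0 were higher in both STAT KO pairs and 3 lower, with a median of -0.25 (WT 1.32). Il31 was the 1 member called in the 4-library limma fit. Il13 was at 64.1 and 48.4 FPKM on day 7 and at 14.2 and 15.3 with the vector, with WT values of 14.7 (Th1) and 74.8 (Th2), and 42.0 and 38.9. Il6 was under 0.2 FPKM in all 4 STAT KO libraries and at 133 and 50.2 FPKM in WT Th2.

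Among receptors, Il12rb2, the signalling chain of the IL-12 receptor, was at 6.47 and 4.68 FPKM on day 7 and at 1.89 and 1.86 with the vector (STAT4 KO first). WT Th1 had 99.9 and 60.0 FPKM and WT Th2 0.339 and 0.452, so all 4 STAT KO libraries lay between. The STAT KO minus WT difference was 5.61 ± 0.48 (limma adjusted p = 0.00441). Il18r1, a chain of the IL-18 receptor, was at 68.1 and 63.1 FPKM on day 7 and 23.4 and 33.4 with the vector, against 328 and 96.5 in WT Th1 and 8.46 and 1.90 in WT Th2. Of 22 tested cytokine receptor chains 6 were higher and 5 lower in both STAT KO pairs, with a median of -0.013 that turned positive under both other scalings, and Il7r was the 1 called in the 4-library limma fit. Of 6 tested chemokine receptors 1 was higher and 2 lower in both pairs (median 0.011), and Ccr8 was the 1 called.

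Of 10 tested JAK and STAT genes only Stat4 and Stat6 were called in the 4-library limma fit, 1 in each direction. Stat5a, which carries IL-2 signals, was at 15.1 and 12.4 FPKM on day 7 and at 182 and 81.0 with the vector, so the 2 groups were apart in the vector culture alone by fold. The difference between the 2 cultures was not tested. Of 10 genes that dampen or follow STAT signals (the Socs and Pim genes and Cish) 2 were higher and 6 lower in both STAT KO pairs, with a median of -0.13 (WT -0.40), and 0 were called in that fit.

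Among transcription factors, Tbx21 was at 47.9 FPKM in STAT4 KO Th1 and 43.7 in STAT6 KO Th2 on day 7, and at 35.1 and 40.4 with the vector. WT Th1 had 88.4 and 61.0 FPKM and WT Th2 3.61 and 2.43. The 4 STAT KO levels overlapped between the groups and lay above both WT Th2 libraries. The STAT KO difference of Tbx21 was 0.03 ± 0.17 and differed from the WT one by 4.26 ± 0.24 (limma adjusted p = 9.66e-04). Irf8 was at 100.0 and 119 FPKM on day 7 and 215 and 233 with the vector, against 231 and 235 in WT Th1 and 10.0 and 32.6 in WT Th2. Of 8 tested Th1 transcription factors 3 were higher and 2 lower in both STAT KO pairs, with a median of 0.012 (WT -1.33).

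Gata3, which directs Th2 genes, was at 23.5 and 14.3 FPKM on day 7 and 25.8 and 29.7 with the vector (STAT4 KO first). WT Th1 had 35.4 and 24.9 FPKM and WT Th2 62.1 and 95.7. All 4 STAT KO libraries were below both WT Th2 libraries, but the change of the difference, -1.59, did not pass limma (adjusted p = 0.258). Of 10 tested Th2 transcription factors 1 was higher and 3 lower in both STAT KO pairs. Their median was -0.042 (WT 0.08) and turned positive under both other scalings (0.012 upper-quartile, 0.026 quantile). In the 4-library limma fit 0 factors of either list were called.

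**Figure D4:**
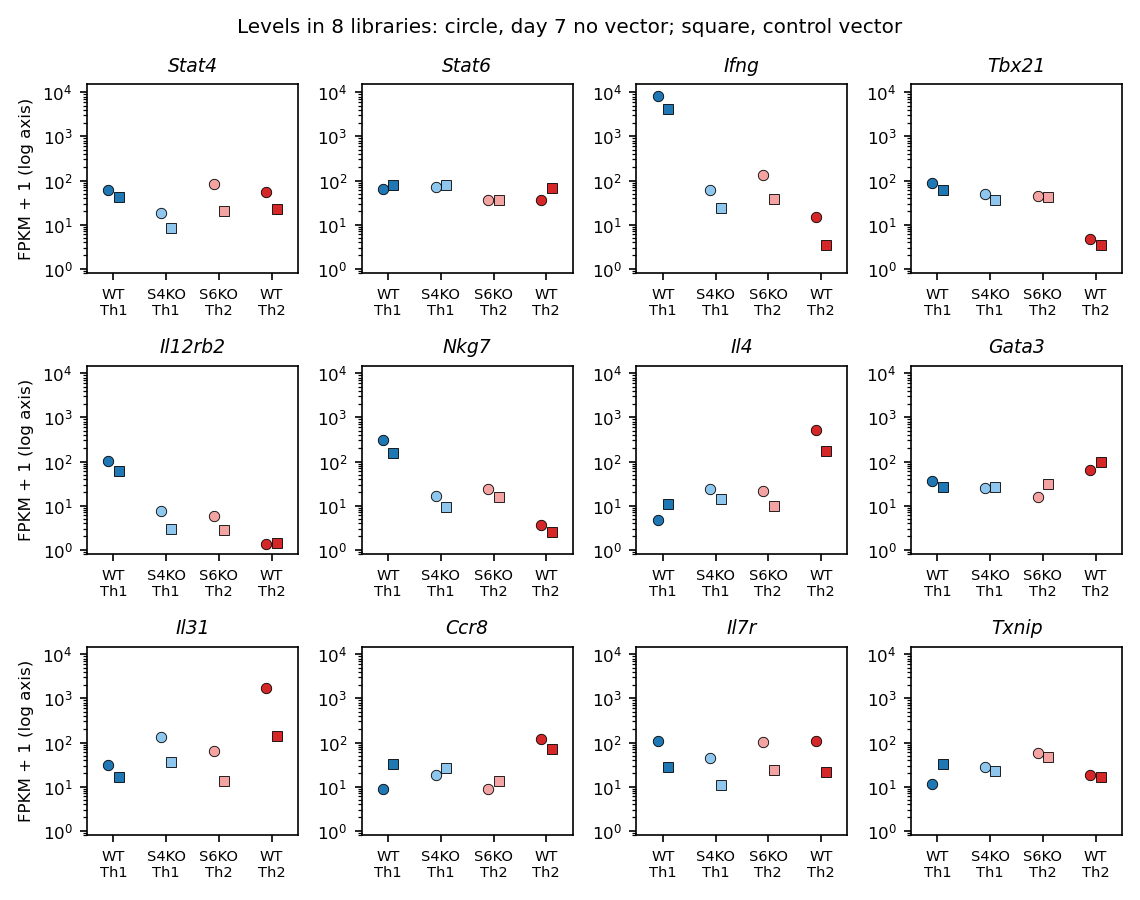
FPKM + 1 (log axis) of 12 genes in the 8 libraries, 1 point per library, circles for day 7 without a vector and squares for the control vector (S4KO, STAT4 KO; S6KO, STAT6 KO). For Ifng, Il12rb2 and Nkg7 the 4 STAT KO points lie between WT Th1 and WT Th2, and for Il4 they lie far below WT Th2.

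Among effector and surface genes of Th1 cells, Nkg7, a cytotoxic granule membrane protein, was at 15.6 and 22.3 FPKM on day 7 and 8.41 and 15.025 with the vector, against 306 and 158 in WT Th1 and 2.64 and 1.47 in WT Th2. Its STAT KO minus WT difference was 6.83 ± 0.25 (limma adjusted p = 2.54e-04). Of 11 tested genes of this list 8 were higher and 1 lower in STAT6 KO Th2 in both pairs, with a median of 0.50 (WT -2.56). Ly6c1 and Ly6c2 were the 2 called in the 4-library limma fit. Ly6c1 was at 32.6 and 56.5 FPKM on day 7 and 5.54 and 12.1 with the vector, and Ly6c2 at 14.4 and 37.8, and 1.99 and 3.61. These neighbouring copies may share reads.

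Among all 8025 genes tested in the STAT KO pairs, 171 were Th1-biased and 46 Th2-biased. Of the 51 genes called in the 4-library limma fit 15 were WT-biased genes. The 6 Th1-biased genes higher in STAT6 KO Th2 were Ifng, Cxcl10, Ly6c1, Ly6c2, Gimap7 and Klhl6, and the 5 Th2-biased genes lower in it were Il31, Ccr8, Pdlim4, Il17f and St3gal1. The 4 with the WT direction were H2-Q6, H2-Q7, H2-Q8 and H2-Q9, copies that may share reads. Gimap7, Klhl6, St3gal1, H2-Q6 and H2-Q8 were named after their values were seen. Thus 11 of the 15 were opposite in direction to WT, with copies counted as separate genes. Over all Th1-biased genes the sign was opposite to WT in both STAT KO pairs for 64 and the same for 63. Over all Th2-biased genes these counts were 39 and 15.

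Interferon targets mostly had small positive differences, with 1 call among them (Cxcl10, given above). The GTPases of the Gbp and Irg families, which IFNG induces and which defend cells against intracellular microbes, had positive differences in both pairs for 10 of 15 genes and in the vector pair for 15 of 15. Their median was 0.43 on day 7 and 0.52 with the vector, against -0.052 and -0.069 over all tested genes, and the WT median was 0.12 on day 7 and -2.18 with the vector. Igtp was at 227 and 417 FPKM on day 7 and 231 and 327 with the vector, and Irgm2 at 58.9 and 112, and 47.5 and 70.2. In limma 0 of the 15 passed, in the 8-library and in the 4-library fit, and clustered Gbp copies may share reads. Of 22 other interferon-stimulated genes 11 were higher and 2 lower in both pairs, with a median of -0.006 on day 7 and 0.41 with the vector.

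Genes of the T cell receptor's early response had opposite signs in the 2 pairs for 14 of 25 genes (56%), against 45.1% of all tested genes, which was not tested. Of the 25 genes 23 had negative differences on day 7 (median -0.54) and 16 positive ones with the vector (median 0.21). Egr3 was at 730 FPKM in STAT4 KO Th1 and 316 in STAT6 KO Th2 on day 7, and at 94.5 and 106 with the vector. Fos was at 81.3 and 51.7 FPKM, and at 26.0 and 36.6 with the vector. In the 4-library limma fit 0 of the 25 were called. The day 7 cells had 2 h of restimulation, and the labels of the vector cells do not agree on it; its part in the result was not tested.

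Of 17 tested secretory pathway chaperones 11 were lower and 1 higher in STAT6 KO Th2 in both pairs (median -0.22, WT 0.39), of 16 cholesterol synthesis genes 7 lower and 0 higher (median -0.12, WT 0.58), and of 16 glycolysis genes 12 lower and 2 higher (median -0.19, WT -0.09). The 1 called chaperone in the 4-library limma fit was Sdf2l1, at 10.98 and 5.15 FPKM on day 7 and 19.6 and 11.7 with the vector. Of 15 T cell receptor complex genes 5 were higher and 6 lower in both pairs (median -0.041, and 0.013 with upper-quartile scaling, where 3 were lower), and of 23 cell cycle genes 4 higher and 10 lower (median -0.083), with 0 called in that fit. Upper-quartile scaling gave 9 lower and 1 higher chaperones, 6 and 0 cholesterol synthesis genes, 10 and 2 glycolysis genes and 7 and 5 cell cycle genes. With quantile normalization these counts were 10 and 1, 6 and 1, 8 and 2, and 7 and 5.

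Smaller groups held single called genes. Lrrc32, which tethers latent TGF-beta on regulatory T cells, was at 24.3 and 8.55 FPKM on day 7 and 25.4 and 13.2 with the vector. The difference was -1.15 ± 0.29 (SE of the 8-library limma fit, which did not call it). In the separate 4-library limma fit its adjusted p was 0.00135, and Lrrc32 was the 1 of 6 tested regulatory T cell genes called there. Foxp3, the factor that defines those cells, was at 5.51 and 4.53 FPKM, and 10.5 and 8.38 with the vector. H2-DMa, which loads peptide on MHC class II, was at 38.8 and 21.8 FPKM, and 30.03 and 15.1 (4-library limma adjusted p = 0.0175). Igfbp7, listed with the Th2 surface genes although its WT difference was -2.46, was at 10.5 and 5.13 FPKM, and 44.2 and 26.0 (4-library limma adjusted p = 0.0178). Dapl1, on the list of naive and memory genes, was at 78.8 and 160 FPKM, and 24.1 and 45.6, higher in STAT6 KO Th2 both times (4-library limma adjusted p = 0.0271).

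**Figure D5:**
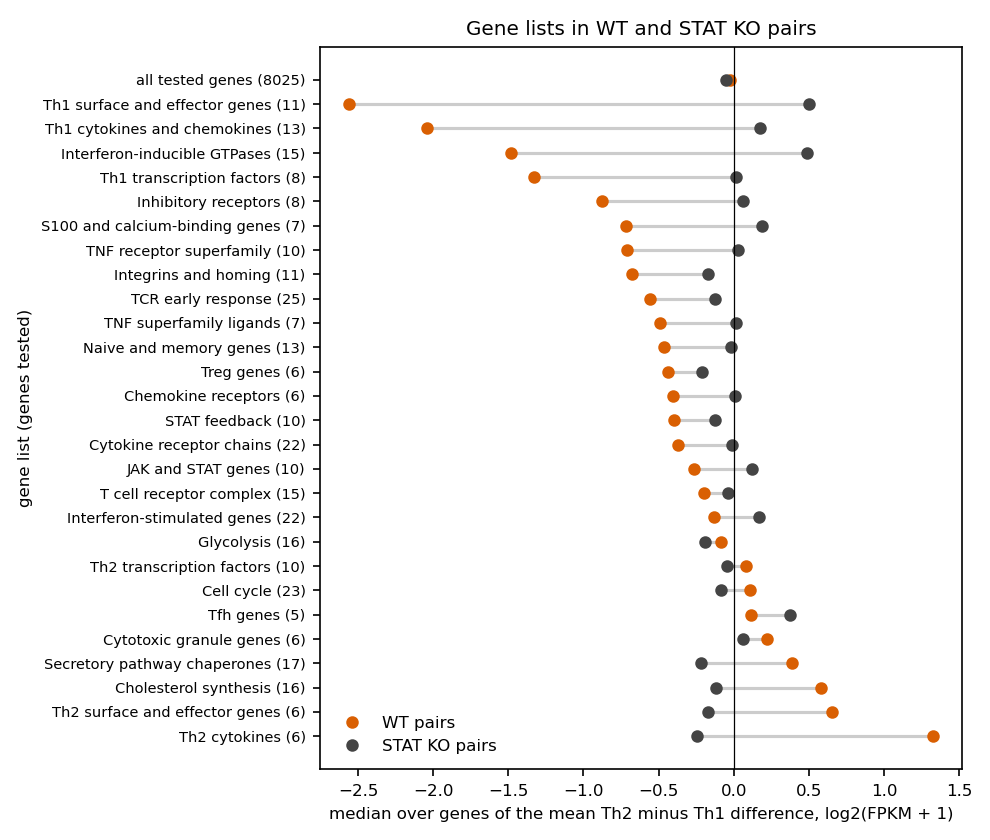
Median over the tested genes of each list (number in parentheses) of the mean Th2 minus Th1 difference (log2(FPKM + 1)) in WT pairs (orange) and STAT KO pairs (grey). The Th1 lists lie far left of 0 in WT and at or right of 0 in STAT KO, the Th2 cytokines lie right of 0 in WT and left of it in STAT KO, and the grey points of the lists shown lie between -0.25 and 0.50.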

How the data were processed

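The deposited tables hold gene-level FPKM with an interval, 1 table per RNA library, as Cufflinks writes them per the file headers. Per the submitters' processing notes TopHat, Cufflinks and SICER were used with build mm9; their versions and the annotation are not given in the sources. Members were chosen by genotype and vector labels, and members and gene lists were chosen with earlier results of these data known. Values were taken as log2(FPKM + 1), and genes at 3 FPKM or more in at least 1 library of each pair were tested: 8025 in the STAT KO pairs, 8066 in the WT pairs and 8420 in either. limma 3.58.1 in R 4.3.3 (lmFit, eBayes with trend) was fitted to 8 libraries with 4 group terms and a culture term, which leaves 3 residual degrees of freedom; p-values were adjusted by Benjamini-Hochberg over all tested genes. The naming rule takes, by size, genes called between the STAT KO lineages and WT-biased genes that were kept, reversed or within 0.5 in STAT KO cells, and any member of a gene list; other called genes are counted. 1 gene that this rule covers is not reported here. Small RNA genes and symbols listed at several loci (241) are counted but not named, with exceptions stated. The fits were tested on simulated data, with 100 genes changed by 1 and 100 by 2 on the log2 scale. Of those changed by 1, the 8-library fit called 52, the 4-library fit 96 and the test of the difference from WT 13. Of those changed by 2 they called 100, 100 and 87, and of unchanged genes 14, 25 and 8. The simulated noise was independent between libraries, and the culture effect of a gene was the same in every group. The real libraries need not meet this. In the real 8-library limma fit Myl10 (-2.22) and Stat4 (1.72) had an adjusted p of 0.9998. The simulated counts thus do not give the share of real differences that the fits would call. A second WT Th1 library and the T-bet KO library, with 21.1% and 22.6% of their FPKM on small RNA genes, were left out. Alternatives were another pseudocount, minimum, scaling, set of libraries, model and fold. RefSeq promoters were matched by symbol.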

Additional observations from a re-analysis of the deposited data

Results flagged for a closer look

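The Th2 minus Th1 difference in STAT KO cells differed from that in WT cells, by the limma test of the difference, for 68 genes. Among those named, the STAT KO minus WT difference (log2(FPKM + 1)) was positive, which is a lost Th1 bias, for the cytokine and chemokine genes Ifng (10.59), Ccl3 (5.15) and Ccl5 (3.37). It was positive for the receptor genes Il12rb2 (5.61), Il18r1 (5.29) and Il18rap (4.07), and for the factors Tbx21 (4.26) and Irf8 (3.79). The surface and effector genes Plac8 (6.85), Nkg7 (6.83), Ly6c2 (6.29), Ly6c1 (4.65), Tnfsf4 (4.65) and Icam1 (3.17) were alike. Plac8 was at 1007.8 and 178 FPKM in WT Th1 and at 11.1 and 18.5 FPKM in the day 7 STAT4 KO and STAT6 KO libraries.

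The difference was negative, a lost Th2 bias, for the cytokines Il4 (-5.73), Il31 (-5.66) and Il6 (-5.48). It was also negative for the receptors Calcrl (-4.90), Tnfrsf8 (-4.69) and Htr1b (-4.59), and for Rnd3 (-4.62), Epas1 (-4.56) and Pdlim4 (-4.52). Epas1, an oxygen-sensing factor, was at 44.6 and 21.5 FPKM in WT Th2 and under 0.3 FPKM in all 4 STAT KO libraries. The calls of Il4, Il31, Il6, Htr1b, Ccl5, Irf8 and Tnfsf4 were lost without any 1 of the 4 STAT KO libraries, and those of Epas1 and Il18rap without any 1 of 3 of them.

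In the 2 STAT KO pairs 10 genes were 2-fold apart in opposite directions, and the difference between the pairs was not tested. Of these, 9 were small RNA genes and 1 was a symbol listed at several loci.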

How the results depend on the processing

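No paired analysis was possible because the groups compared share only 1 replicate number; the libraries of a culture are set side by side by the culture term, without which the count of STAT KO calls was also 1. The number of genes called between the STAT KO lineages was 1, and it was 0 with a pseudocount of 0.1, with a minimum of 10 FPKM and with 12 or 14 libraries, 51 with the 4 STAT KO libraries alone, 39 with those after upper-quartile scaling, and 1 to 2 without any 1 library. For the difference between STAT KO and WT the count of 68 became 43 with a minimum of 10 FPKM, 325 with 12 libraries and 23 to 190 without any 1 library. The WT count of 331 became 137 to 854 without any 1 library. The 17 genes 2-fold apart in both STAT KO pairs became 66 at 1.5-fold, 5 at 4-fold, 10 with a pseudocount of 3, 11 with upper-quartile scaling and 11 without small RNA genes. WT-biased genes kept in STAT KO cells (2) became 7 at 1.5-fold, 0 at 4-fold, 4 with a pseudocount of 0.1 and 1 with a pseudocount of 3, and reversed ones (3) became 14, 0, 6 and 1. With upper-quartile scaling the kept and reversed genes numbered 0 and 1, and with quantile normalization 1 and 1. With the second WT Th1 library in the WT pair these counts were 2 and 3. The causes of these changes were not tested. Of the values of named genes in the STAT KO difference under an alternative, 154 stayed on their side of the threshold and 11, all with the 4 STAT KO libraries, passed it; for the difference from WT 269 stayed and 53 lost the call, and 0 of either turned direction. Alternatives for the WT count, the reversed genes, the list medians, the genes without small RNA and the scaled 4-library fit were added after seeing the data. Each group compared has 1 library per culture, and read totals are unknown.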
